A study of Mus musculus with 2 samples.

Results

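The aquaporins are the family of membrane channels through which water, and for some members glycerol, crosses cell membranes. Expression of 8 aquaporin genes (Aqp1, Aqp3, Aqp4, Aqp5, Aqp7, Aqp8, Aqp9 and Aqp11) was examined in wild-type mouse tooth and skin. The members were all non-control probes whose gene name on the array was one of these symbols. They were 8 of 24323 named genes, carried by 12 of the 55681 non-control probes, each a 60-base oligonucleotide spotted 1 time on an array. Aqp4, Aqp5, Aqp8 and Aqp11 had 2 probes each, and the other 4 genes had 1. Total RNA of wild-type tooth and of wild-type skin was labelled with a single cyanine dye and hybridised to 1 Agilent mouse array per tissue, both on the same slide. Both samples are labelled as postnatal day 0, and the methods of the study describe tooth germs and skin taken 1 day later. How many animals contributed to each array is not given in the sources used here. No gene is deleted and no treatment is applied in either sample. As there was 1 array per tissue, no difference could be tested, and each value lacks a replicate check.

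Aquaporins assemble as tetramers in which every subunit has its own pore, and the pore decides whether glycerol can pass beside water. Aqp1, Aqp4, Aqp5 and Aqp8 are counted among the water channels. Aqp3, Aqp7 and Aqp9 are aquaglyceroporins, which also conduct glycerol. Aqp11 belongs to an unorthodox group that sits largely on internal membranes. In skin the family is best known for Aqp3 of the basal epidermis, which supplies the outer layers with glycerol.

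A level below is the log2 of the processed signal after subtraction of the 75th percentile of the array, so that 0 is that percentile. The ± after a level is the error that the extraction software assigns to the spot, and the ± after a difference combines both spots. It is the error of reading a spot and not of animals. The lowest signal that the software called well above background was -4.52 for tooth and -3.73 for skin. A signal that it did not call well above background gives only a bound. The bound is the array's lowest signal well above background, or the dim reading itself where that is higher. In the latter case the fold given is a ratio of readings and not a lower limit. Bounds hold only for the processing described here. At least 2-fold, a difference of 1 on this scale, counted as a call. Levels of different probes were not compared, because each probe binds with its own strength.

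The probes of Aqp5, Aqp8, Aqp9 and Aqp11 were dim on at least 1 array or close to its limit, so 1 probe of each is shown as printed on the array. Only probes that can be read through in at least 1 frame without a stop codon were eligible for printing, so this trait is not a result. The probes of Aqp1, Aqp3 and Aqp7 have 0 such frames. Capitals mark the longest run that the probe shares with a probe of another aquaporin gene, Aqp2, Aqp6, Aqp12 and Mip included. These runs were 8 or 9 bases long here, and 11 bases at most among all members. The positions are those of the array design in mm9. The first lies at chr15:99424655-99424714 on the + strand, the second at chr7:130606210-130606269 on the + strand, the third at chr9:70978252-70978311 on the - strand and the fourth at chr7:104877482-104877541 on the - strand. The exon under each probe was not analysed here.
Aqp5: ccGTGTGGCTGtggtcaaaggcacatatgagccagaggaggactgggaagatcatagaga
Aqp8: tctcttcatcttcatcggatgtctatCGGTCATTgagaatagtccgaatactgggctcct
Aqp9: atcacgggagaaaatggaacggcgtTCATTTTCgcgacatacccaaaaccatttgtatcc
Aqp11: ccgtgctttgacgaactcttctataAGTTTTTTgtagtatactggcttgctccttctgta
The Aqp5 probe is the brighter of that gene's pair, and it separated the tissues further than the other one. The Aqp8 and Aqp11 probes are the dimmer of their pairs, and the calls of these genes rest on the brighter ones. The Aqp9 probe is the only one of its gene, which has no call.

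The members fell into 3 that were higher in skin, 1 that was higher in tooth, 3 within 2-fold and 1 without a measurement. Aqp3, Aqp5 and Aqp8 were at least 2-fold higher in skin. Aqp11 was at least 2-fold higher in tooth. Aqp1, Aqp4 and Aqp7 differed by less than 2-fold. Aqp9 did not rise well above background in either tissue and therefore has no difference. The 7 measured genes comprised 5 measured on both arrays, 1 measured in skin only and 1 in tooth only. Over all 17409 named genes measured, 14.2% passed 2-fold toward skin and 15.5% toward tooth. Whether the family differs from the rest was not tested. The median of the 7 differences was 0.10, beside a median of -0.04 and quartiles of -0.58 and 0.47 over all genes measured. The direction of the smaller differences depends on how the arrays are scaled. Scaling to the spike-in transcripts moved the median of all genes from -0.04 to -0.67, and scaling to the array median moved it to -0.29. The split of calls over all genes was 2466 in skin and 2691 in tooth, and it became 1573 and 5639 with spike-in scaling and 2020 and 3500 with median scaling.

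**Figure D1:**
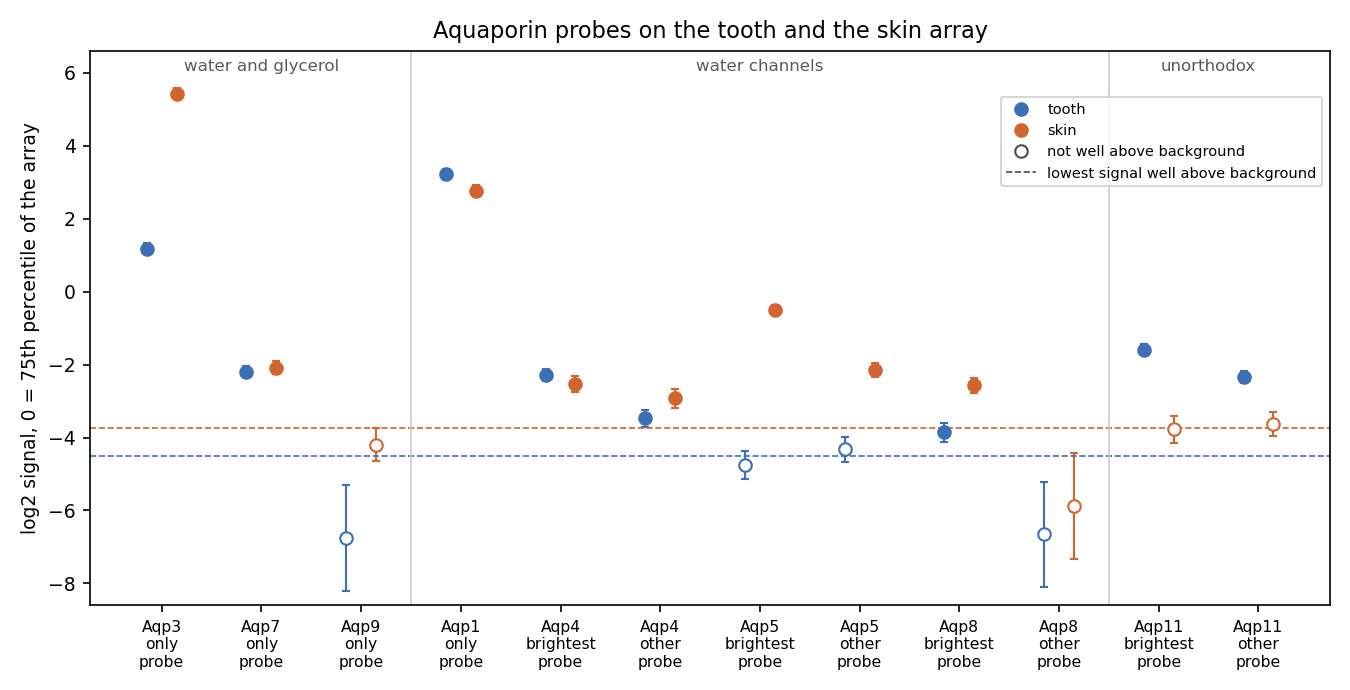
Log2 signal of the 12 aquaporin probes on the tooth array (blue) and the skin array (orange), with 0 at the 75th percentile of each array. Bars are the spot errors given by the extraction software, open circles are signals not well above background, and the dashed lines are the lowest signals well above background (-4.52 in tooth, -3.73 in skin). The single Aqp3 probe and both Aqp5 probes sit clearly higher in skin, and both Aqp11 probes sit higher in tooth.

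Among the aquaglyceroporins, Aqp3 separated the tissues and Aqp7 did not. Aqp3, the glycerol and water channel of keratinocyte membranes (chr4:41039962-41040021), had a processed intensity of 966 ± 96.7 in tooth and 11879.7 ± 1188 in skin. Its level was 1.17 ± 0.14 in tooth and 5.43 ± 0.14 in skin. The difference of 4.25 ± 0.20 is a 19.1-fold higher signal in skin. It ranked 208th from the skin side among 15271 genes measured on both arrays. The signal was well above background in both tissues.

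The keratinocyte list was higher in skin as well. All 6 genes were measured on both arrays and higher in skin, 4 of them at least 2-fold, with a median difference of 4.79. The summed signal of the list, in units of each array's 75th percentile, was 548 in tooth and 3982 in skin. Such a sum adds probes of unequal strength and follows the brightest of them. The list did not move as 1 block. Krt1, Krt10 and Lor, genes of the differentiating layers, differed by 9.93, 8.39 and 9.11. The basal-layer genes Krt5 and Krt14 differed by 0.94 and 1.19, and Trp63, the transcription factor of stratified epithelia, by 0.16. With spike-in scaling Trp63 turned to -0.46 and Krt14 fell below 2-fold (0.57), as it did with median scaling (0.94) and quantile normalization (0.95). The Aqp3 difference thus lay between those of the basal and the differentiating genes. In whole tissues fewer cells of a type and less RNA per cell cannot be told apart, and the part of keratinocyte content in the Aqp3 difference was not tested.

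Aqp7, which releases glycerol from adipocytes (chr4:40980431-40980490), had nearly the same level in both tissues. Its intensity was 93.7 ± 10.4 in tooth and 64.8 ± 8.11 in skin, and its level was -2.19 ± 0.16 in tooth and -2.09 ± 0.18 in skin. The difference of 0.10 ± 0.24 is smaller than the error of the spots, and its sign turned with median scaling (-0.15), quantile normalization (-0.04) and spike-in scaling (-0.52). The fat markers differed more, and the part of fat content in the Aqp7 readings was not tested. All 6 adipocyte markers were at least 2-fold higher in skin, with a median of 3.84. With spike-in scaling 5 were, without Lpl (0.92), and the median was 2.35 with normexp correction and 1.94 over genes measured on both arrays. The summed signal of this list was 2.67 in tooth and 19.7 in skin. The defining genes Adipoq, Plin1 and Cidec were not well above background in tooth. Skin exceeded the tooth bound by at least 8.70-fold for Plin1 and 29.8-fold for Cidec. Adipoq was 39.5-fold higher in skin as a ratio of readings, since its dim tooth reading is the bound. These folds hold for the percentile shift only. Normexp correction reduced the differences of Adipoq, Plin1 and Cidec to 3.25, 1.64 and 3.01 (log2), and the other probe of Cidec gave 3.04. The probes of Aqp3 and Aqp7 lie within 59.6 kb of each other on chromosome 4 in mm9, and these neighbours differed by 4.25 and 0.10.

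Aqp9, an aquaglyceroporin of liver and leukocytes, was at or near background. Its intensity was 3.98 in tooth, where the software had replaced the reading by a surrogate, and 15.04 ± 4.66 in skin. The skin spot was called significantly above background by the more lenient call but not well above it. No fold is given, since both sides were dim. All 6 genes of the myeloid and neutrophil list were well above background in both tissues, though Fcgr3 was low (-3.11 in tooth, -2.77 in skin). The part of leukocyte content in the Aqp9 readings was not tested. S100a8 and S100a9, calcium-binding proteins of neutrophils, were higher in tooth, with differences of -2.62 and -3.66 (skin minus tooth). The other 4 genes of that list lay between 0.13 and 0.48 by their brightest probes, and all of them turned negative with spike-in scaling. Among these, the 3 measured probes of Itgam spanned -0.27 to 0.74.

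The water channels held both a member that was close to background in tooth and a member that was bright in both tissues. Aqp5 is the apical water channel of salivary, lacrimal and airway glands. Its brighter probe had an intensity of 15.8 ± 4.22 in tooth and 194 ± 19.9 in skin, or levels of -4.76 ± 0.39 and -0.51 ± 0.15. The tooth signal was not well above background, so by this probe and under the percentile shift skin was at least 16.1-fold higher. The other probe, 483 bases further along (chr15:99425138-99425197), had 21.3 ± 5.10 in tooth and 62.5 ± 8.05 in skin. It too was dim in tooth. Its tooth reading lay above the lowest signal called well above background, so 4.54-fold toward skin is a ratio of readings. Both probes therefore pointed to skin, with a gap of 2.07 ± 0.57 between their measured differences of 4.25 and 2.18. Normexp background correction, which compresses dim signals, gave 2.24 for the brighter probe, and the mean of both probes gave 3.22.

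Markers of exocrine glands were mostly near background. Of the 6 genes Smgc, Muc19, Dcpp1, Prol1, Bpifa2 and Bhlha15, 5 were not well above background in either tissue. Bhlha15, a transcription factor of secretory cells, was well above background in tooth and dim in skin. Tooth exceeded the skin bound by at least 7.05-fold, but with normexp correction its difference shrank from -4.81 to -1.42. The summed signal of the list was 0.61 in tooth, of which Bhlha15 gave 0.53, and 0.14 in skin, all of it from dim readings. The part of gland content in the Aqp5 readings was not tested.

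Aqp1, the water channel of red cells and of the endothelium of small vessels (chr6:55298480-55298539), was bright in both tissues. Its intensity was 3963 ± 396 in tooth and 1881 ± 188 in skin, and its level was 3.21 ± 0.14 in tooth and 2.77 ± 0.14 in skin. The difference of -0.44 ± 0.20, a 1.36-fold higher signal in tooth, stayed below 2-fold and at percentile 26.6 of the genes measured on both arrays. Its sign was the same under every alternative, between -1.07 with spike-in scaling and -0.43, and with spike-in scaling it passed 2-fold.

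The cell types known for Aqp1 also gave higher values in tooth for several genes. Of 6 endothelial genes, 4 were at least 2-fold higher in tooth. Emcn, an endothelial sialomucin, differed by -3.10, the vascular cadherin Cdh5 by -2.70 and the adhesion molecule Esam by -2.49. Tek, the angiopoietin receptor, was dim in skin, so tooth was higher by at least 2.77-fold. This call was lost with normexp correction (-0.43), which left 3 endothelial calls. Pecam1 and Kdr differed by 0.50 and 0.43 but turned to -0.12 and -0.19 with spike-in scaling. The other probe of Kdr gave -2.19. The summed endothelial signal was 34.2 in tooth and 38.7 in skin, of which Kdr alone gave 27.4 and 37.0 (6.79 and 1.76 without it). Of the red cell genes, 3 were measured, with Hba-a1 at -1.23, Alas2 at -0.84 and Slc4a1 at 0.36, while Epb4.2 was dim in both tissues and Hbb-b1 was not matched on the array. Slc4a1 turned to -0.26 with spike-in scaling, and Hba-a1 has a close paralog that can share its signal. The summed red cell signal was 93.2 in tooth and 40.4 in skin, nearly all of it from Hba-a1 (91.5 and 39.1). The part of vessel and blood content in the Aqp1 difference was not tested.

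Aqp4, the water channel of astrocyte endfeet that is also found in skeletal muscle, gave no stable direction. Its brighter probe (chr18:15551364-15551423) had an intensity of 87.9 ± 10.2 in tooth and 47.6 ± 7.27 in skin, with levels of -2.28 ± 0.17 and -2.54 ± 0.22. The difference was -0.25 ± 0.28. The other probe, 3413 bases away (chr18:15547951-15548010), had 38.4 ± 6.20 and 36.4 ± 6.48, and its difference was 0.56 ± 0.35. The probes thus had opposite signs, and their gap of 0.81 ± 0.44 was below 2-fold. The brighter probe turned to 0.17 with normexp correction and went to -0.88 with spike-in scaling. Skeletal muscle genes, in contrast, were at least 2-fold higher in skin for 5 of 6. These were Tnnt3 (3.82), Myh8 (3.49), Ckm (3.38), Myh3 (3.35) and Acta1 (2.80). Actn3 went the other way (-0.47) and passed 2-fold toward tooth with spike-in scaling (-1.09). The measured probes of Myh8 reached down to 0.94. The summed muscle signal was 9.21 in tooth and 88.4 in skin.

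Aqp8, a channel for water and ammonia described in pancreas, liver and colon, was dim. Its brighter probe (chr7:130611453-130611512) had an intensity of 29.6 ± 5.33 in tooth and 46.4 ± 6.90 in skin. The levels were -3.85 ± 0.26 and -2.57 ± 0.21, both well above background, and the difference was 1.28 ± 0.34. Among equally dim probes printed many times, the median spot SD within an array was 0.36 in tooth and 0.36 in skin. Combined, these give 0.51 for a difference. The difference exceeded the 2-fold line by less than either of these errors. The other probe, 5243 bases away, was at surrogate values of 4.24 in tooth and 4.68 in skin, so the call for Aqp8 rests on 1 probe. The difference fell below 2-fold with spike-in scaling (0.66) and normexp correction (0.77).

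Aqp11, whose loss in mice leads to cystic kidneys, was the member higher in tooth. Its brighter probe (chr7:104874889-104874948) had an intensity of 142 ± 14.9 in tooth and 20.2 ± 5.18 in skin, and levels of -1.59 ± 0.15 and -3.77 ± 0.37. The skin signal was not well above background, and under the percentile shift tooth exceeded this bound by at least 4.41-fold. The second probe, 2593 bases away, had 84.6 ± 9.37 in tooth and 22.3 ± 4.997 in skin. Its skin reading lay above the lowest signal called well above background, so 2.45-fold toward tooth is a ratio of readings. Both probes were well above background in tooth only. The measured difference was -2.18 ± 0.40 by the brighter probe and -1.29 ± 0.36 by the other, a gap of 0.89 ± 0.54. Normexp correction reduced the brighter probe's difference to -0.71, below 2-fold, and spike-in scaling extended it to -2.80.

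**Figure D2:**
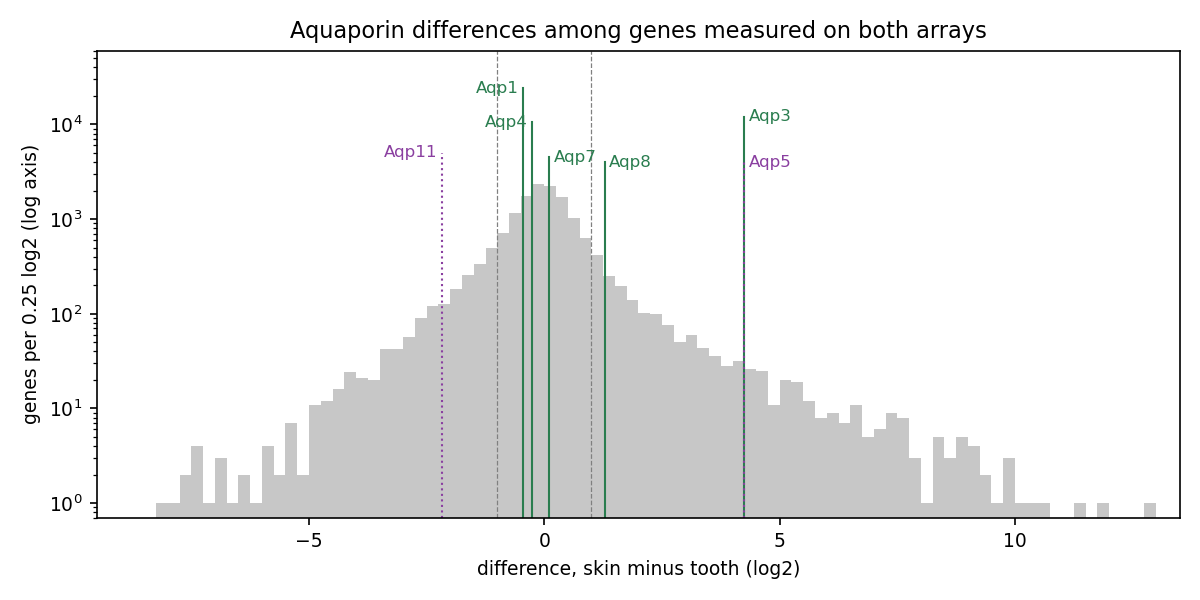
Distribution of the difference between skin and tooth (log2, skin minus tooth) over the 15271 genes measured on both arrays, with the number of genes on a log axis. Green lines mark aquaporins measured on both arrays. Dotted purple lines mark those dim on 1 array (Aqp5 in tooth, Aqp11 in skin), whose difference under the percentile shift is only bounded. Dashed grey lines mark 2-fold. Aqp3 and Aqp5, both at 4.25, lie in the right tail, and Aqp1, Aqp4 and Aqp7 lie near the middle.

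Other genes of the family, which the name rule does not take, were mostly at background. Mip of the eye lens, Aqp6 of kidney vesicles and Aqp12 of pancreatic acinar cells were dim in both tissues. Aqp2, the vasopressin-regulated channel of the kidney collecting duct, was well above background on both. Its tooth level was -2.12 ± 0.16 and its skin level -1.57 ± 0.16. The difference of 0.56 ± 0.23 turned to -0.07 with spike-in scaling. Aqp2, Aqp5 and Aqp6 are neighbours on chromosome 15, with all their probes within 23.3 kb in mm9. Of these 3 genes, Aqp6 was at background, Aqp2 was within 2-fold and Aqp5 was higher in skin by both of its probes.

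**Figure D3:**
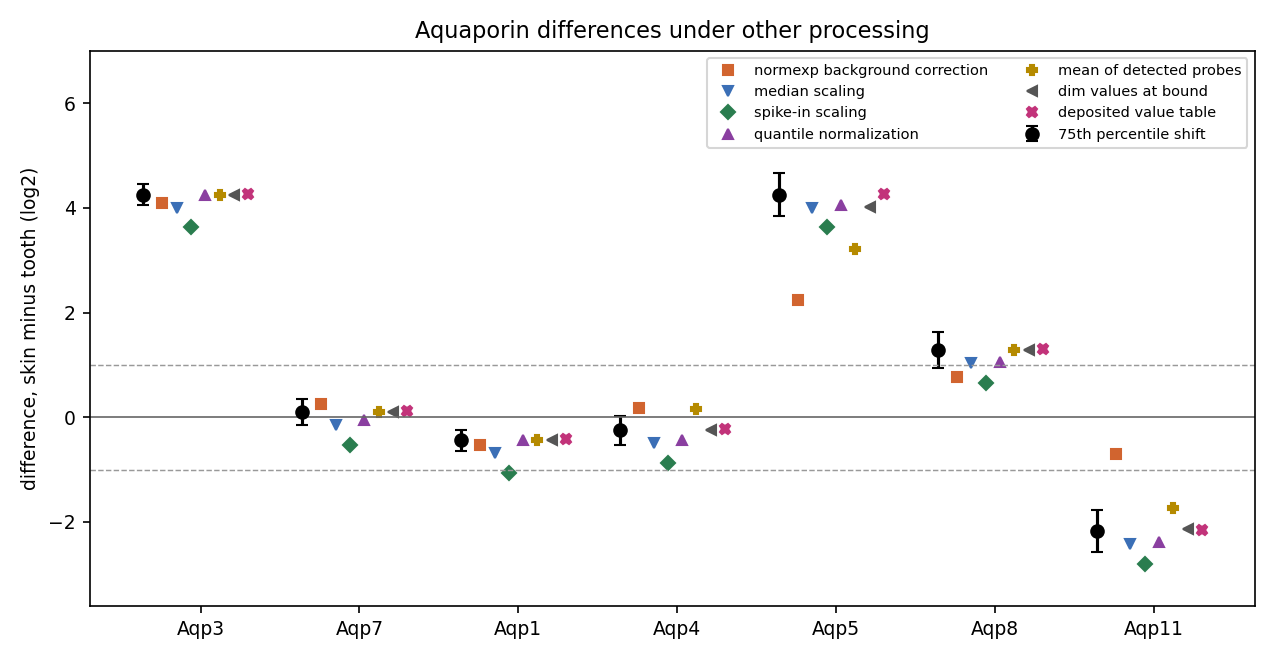
Difference between skin and tooth (log2, skin minus tooth) of the 7 measured aquaporin genes under the 75th percentile shift (black, bars are the spot errors) and under 7 alternatives. Dashed lines mark 2-fold. Aqp3 and Aqp5 stay above 2-fold and Aqp1 and Aqp11 below 0 under all those shown, whereas Aqp4 and Aqp7 appear on both sides of 0. Aqp1, Aqp8 and Aqp11 each cross a 2-fold line, Aqp1 with spike-in scaling (-1.07) and Aqp11 with normexp correction (-0.71).

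Genes that work beside the channels were then described by list. Glycerol that passes Aqp3 and Aqp7 is released from stored fat by lipases and re-enters lipid synthesis after phosphorylation. All 10 genes of glycerol release and use were measured on both arrays, of which 4 passed 2-fold toward skin and 1 toward tooth, with a median of 0.91. Dgat2, which adds the last acyl chain to triglyceride, had the largest difference of the list, from 1.90 in tooth to 6.28 in skin (4.38). Gpd1, which links glycerol phosphate to glycolysis, differed by 3.23 and the lipase Mgll by 2.30. Pnpla2, the first lipase of fat breakdown, stood at 1.02 and fell below 2-fold with spike-in scaling (0.40), median scaling (0.77) and normexp correction (0.89). The glycerol kinase Gk differed by 0.83, and Lpin1, a phosphatidate phosphatase, passed 2-fold toward tooth (-1.13), a call that was lost with normexp correction (-0.31). The fat markers given above were also higher in skin, and their part in these values was not tested.

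Genes of ion transport, which set the osmotic gradients that water follows, differed toward tooth for several members. Of 10 genes, all measured on both arrays, 5 were at least 2-fold higher in tooth and 0 in skin. These counts were the same with spike-in, median and quantile scaling and with normexp correction. The calls toward tooth over all genes did change between these settings. They were 2691 under the percentile shift, 5639 with spike-in, 3500 with median and 2914 with quantile scaling, and 1672 with normexp correction. The median of the list was -0.75. Carbonic anhydrase 2 (Car2) went from 2.62 in tooth to -1.55 in skin (-4.17), and the bicarbonate cotransporter Slc4a4 from 1.64 to -1.56 (-3.19). The other measured probes of Slc4a4 gave -3.49 and -2.20. The potassium channel Kcnn4 differed by -2.66 and the chloride importer Slc12a2 by -1.29. Cftr (0.02), Atp1b1 (0.08), Ano1 (0.27) and Car12 (0.58) were within 2-fold and turned negative with spike-in scaling. Both carbonic anhydrase 2 and Slc4a4 are known outside glands as well, the former in osteoclasts, and the source of either signal was not tested.

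The aquaporin partners and anchors showed no call. They comprised the dystrophin-complex members that hold Aqp4 at the membrane, Pld2, which acts on glycerol that has passed Aqp3, the osmosensitive channel Trpv4 and the membrane linker Ezr. Of 7 genes, 6 were measured, Dtna being dim in both tissues, with 0 at least 2-fold in either direction and differences between -0.58 (Trpv4) and 0.85 (Ezr). Under spike-in scaling Trpv4 passed 2-fold (-1.20). Among the 6 genes of the osmotic stress response, the betaine carrier Slc6a12 was the exception to values within 2-fold. Its skin signal was dim, which puts tooth at least 2.39-fold above it, but the call was lost with normexp correction (-0.46). The regulator Nfat5 was at 0.996 and the aldose reductase gene Akr1b3 at -0.97, both just inside the threshold. Akr1b3 passed it with normexp correction (-1.03), median scaling (-1.22) and spike-in scaling (-1.59).

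**Figure D4:**
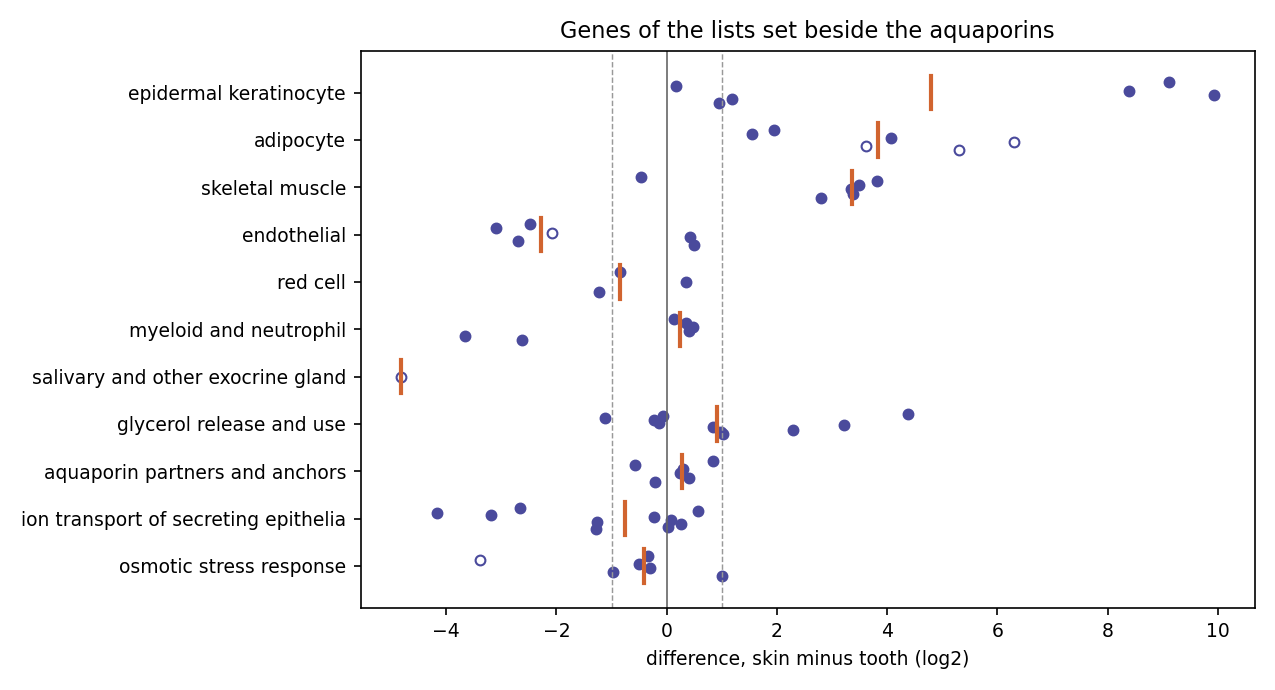
Difference between skin and tooth (log2, skin minus tooth) of each measured gene in the lists set beside the aquaporins, with 1 point per gene and the list median as an orange bar. Open circles are genes dim on 1 array, drawn at their measured value, and dashed lines mark 2-fold. Keratinocyte, adipocyte and muscle genes lie mostly to the right (skin), and endothelial and ion transport genes mostly to the left (tooth).

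The tissue labels were checked against defining markers. All 6 enamel genes and all 6 genes of dentin and bone were at least 2-fold higher in tooth, with 5 and 4 of them dim in skin. The keratinocyte genes were higher in skin, as given above. Over all probes, 56.7% were well above background in tooth and 52.5% in skin.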

How the data were processed

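Total RNA from 1 tooth and 1 skin sample was measured on 1-colour Agilent arrays. The deposited spot values were intensities from Agilent Feature Extraction (10.7.3.1, per the labels), which had subtracted background, detrended each array and put surrogates in place of very dim readings. The authors also deposited a ratio per spot, the processed intensity over 1 factor per array (431 in tooth, 275 in skin), linear and not centred, with column medians of 0.0810 and 0.0989.

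Here, outlier spots (137 and 146) and controls were left out, and spots of a probe were averaged on the log2 scale. The 75th percentile was subtracted, and the probe with the highest mean stood for a gene. Detection required the well-above-background call on over 50% of a probe's spots. Names came from accessions matched to RefSeq (GRCm38.p6, names only) for 27235 probes. Of the alternatives, only the normexp background correction used limma (3.58.1), with an offset of 50. The steps were tested on simulated data. Members, lists and tests were chosen with earlier results of these data known, and all members are named. Some genes of the lists are counted but not reported by name here.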

Additional observations from a re-analysis of the deposited data

How the results depend on the processing

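Values were recomputed under up to 10 alternatives, and under 9 for Aqp5 and Aqp11, which have no value over genes measured on both arrays. The count of aquaporins at least 2-fold higher in skin was 3, and it lay between 2 and 4. The count in tooth was 1, and it became 0 with normexp correction, 0 over genes measured on both arrays, which leaves out Aqp11, and 2 with spike-in scaling, where Aqp1 joined. The median of 0.10 became -0.52 with spike-in scaling and 0.69 both without a filter and with the lenient detection call, which add Aqp9. With spike-in scaling the differences were -1.07 (Aqp1), 3.63 (Aqp3), -0.88 (Aqp4), 3.63 (Aqp5), -0.52 (Aqp7), 0.66 (Aqp8) and -2.80 (Aqp11). Normexp correction gave 0.17 (Aqp4), 2.24 (Aqp5), 0.77 (Aqp8) and -0.71 (Aqp11). Median scaling gave -0.69 (Aqp1), 4.004 (Aqp3) and -0.15 (Aqp7), and the mean of detected probes 0.15 (Aqp4), 3.22 (Aqp5) and -1.74 (Aqp11). Over all genes, the counts of 2466 in skin and 2691 in tooth became 1573 and 5639 with spike-in scaling, and 1672 in tooth with normexp correction. Among genes of the lists, the count in tooth was 27 and became 15 over genes measured on both arrays. Of 139 recomputed list medians, 134 kept their sign, and the gland list's -4.81 reversed to 0.77 without a filter, which adds its dim genes. No paired analysis was possible because each tissue had 1 array. Signal over background limits Aqp5, Aqp8, Aqp9 and Aqp11. Aqp4 was also low, with skin intensities of 47.6 and 36.4 for its probes.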

Other observations

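A further probe lists the Aqp7 transcript among 4 RefSeq accessions, although the array names it for the gene 4930455C21Rik, so the name rule leaves it out. Its tooth intensity was 4474 and its skin intensity 4275. The scaled difference was 0.57 (log2, skin minus tooth), beside 0.10 for the Aqp7 probe. Its signal cannot be assigned to 1 of these transcripts.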
